A study of Ovis aries with 2 samples.

Results

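Of the 2288 intervals called for the nuclear receptor PPARG in the day 14 sheep conceptus, 539 (23.6%, 95% interval 21.9 to 25.3) lay inside a gene and carried neither a CpG island nor a promoter mark. These gene-body intervals were taken from the authors' deposited table as the ChIP intervals with no CpG island, no promoter and at least 1 assigned gene that the table marks as containing the interval. They made up 63.8% (60.5 to 67.0) of the 845 intervals inside any gene, and they fell in 466 named genes or gene identifiers. The choice used the marks and the position, and not the signal.

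Chromatin bound by a rabbit anti-PPARG polyclonal antibody was sequenced (ChIP-seq) in 1 library, and chromatin that was not precipitated was sequenced as input in 1 library. Both came from tissue of 4 conceptuses, pooled, which were flushed from the uterine horn of crossbred ewes on day 14 of pregnancy. No treatment or genotype separates the groups, and with 1 library each there is no error between animals and no test between ChIP and input. Height is the highest value of the authors' density track in an interval, in signal units whose scaling and depth are unknown, and positions are those of build Oar_v3.1. All intervals printed with a percentage are 95% Wilson intervals, which cover counting error over intervals or genes only. No sequence of Oar_v3.1 was used here, so the sites are given by position.

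PPARG binds fatty acids and their derivatives as ligands and sits on DNA in a dimer with a retinoid X receptor (RXR). In adipocytes of mouse and human it is known to occupy many sites in introns and between genes, far from the promoters of the genes it regulates. The conceptus at this stage elongates, and its outer epithelium, the trophectoderm, takes up and uses maternal lipid.

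The highest gene-body interval, at 85, lay 8860 bp into PLCB3, a phospholipase C that cleaves a membrane phosphoinositide downstream of G protein-coupled receptors (chromosome 21, 41867055 to 41869988). It was also the longest of the class, at 2933 bp, and was assigned in addition to PPP1R14B, at -9743 bp from the start of that gene. PEPD, the prolidase gene, had 78 at a depth of 118898 bp, in an interval also assigned as downstream of CEBPG (chromosome 14, 43107403 to 43109734). RAB20, a small GTPase of endosomes and phagosomes, had 77 at 23625 bp (chromosome 10, 84525556 to 84527464). PEMT, listed by the authors as LOC101112913 and matched by its gene ID, had 76 at 73278 bp (chromosome 11, 34327228 to 34328982). It makes phosphatidylcholine from phosphatidylethanolamine. These sites ranked between 24 and 43 by height among all PPARG intervals, so none of the 20 highest intervals of the whole list was in the class.

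The next sites were spread over genes of different kinds. THADA had 76 at 292336 bp (chromosome 3, 80867802 to 80868794). EFNA1, an ephrin ligand of Eph receptors, had 75 at 28155 bp (chromosome 1, 103904260 to 103905601), and ARMC2 had 75 at 90339 bp (chromosome 8, 28317782 to 28319051). The distance at EFNA1 is long for an ephrin gene, and the authors' gene models were not used here, so whether this site is inside EFNA1 was not checked. CPXM1, a carboxypeptidase-like secreted protein, had 70 at 6412 bp. Both EFCAB14 (listed as KIAA0494) and SPIDR, a scaffold of DNA repair (listed as LOC101105167), had 67, at 7082 and 55528 bp. Transcriptional regulators among the highest sites were ARID3B with 66 at 40425 bp and ARID5B, an ARID family protein that mice need to form normal fat, with 63 at 87192 bp. MCF2L2 had 65 at 136643 bp, the polycystin family member PKD1L3 had 64 at 58259 bp, EDEM1 of endoplasmic reticulum protein disposal had 62 at 15580 bp and FRMD4B had 61 at 191311 bp. At 60 stood DIPK1A (listed as FAM69A) at 20010 bp, LPCAT4 at 3526 bp and EMCN at 44322 bp. LPCAT4 adds acyl chains to lysophospholipids and its interval was 2500 bp long (chromosome 7, 25266173 to 25268673). An identifier with no matched name, LOC101115115, had 80. Ties at 60 made 21 sites in all, not all of them named here, of which 17 lay over 10 kb from the start of the containing gene, 10 lay over 50 kb from it and 17 had no other gene assigned.

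**Figure D1:**
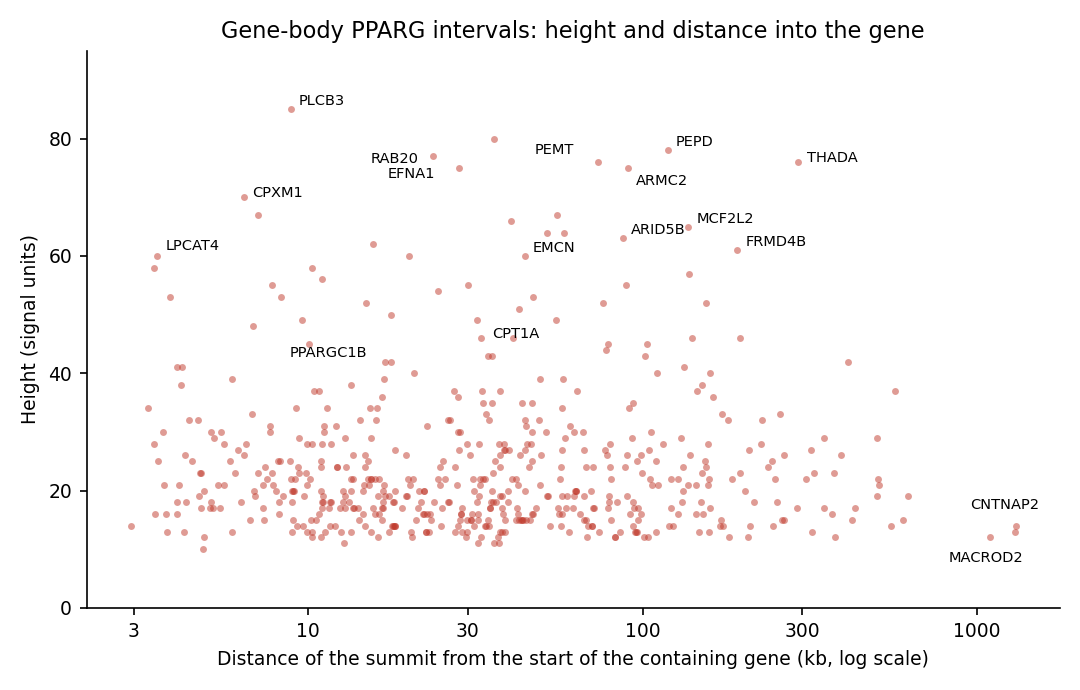
Each point is a gene-body interval in a gene, with its distance from the start of that gene on a log axis (kb) and its height (signal units); selected genes are named. High and low intervals occur at all distances, from LPCAT4 with 60 at 3526 bp to THADA with 76 at 292336 bp, and the CNTNAP2 sites with 13 and 14 lie farthest out.

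EMCN, an endothelial sialomucin gene, is the only gene-body site that was also listed for the input library. Its height was 60 in the ChIP and 38 in the input, a ratio of 1.58, and the mean signal was 34.2 and 18.1, a ratio of 1.88 (chromosome 6, 24335986 to 24336650). Its signal was also flatter than at the other high sites. The mean signal was 0.570 of the height at EMCN and between 0.226 and 0.442 at the other 36 sites of height 50 or more. The remaining 538 intervals of the class have no input value, because the table lists only 5 intervals for the input.

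The middle range of heights was the same as at intervals that have no gene assigned. Gene-body intervals ran from 10 to 85 in height, with a median of 21 and quartiles of 16 and 28. The 700 intervals with neither mark and no assigned gene also had a median of 21 and quartiles of 16 and 28. At the 326 promoter intervals that lack a CpG island the median was 21 and the quartiles were 17 and 29, and at the 423 with both marks they were 27, 20 and 40. The classes differed more among high intervals. A height of 50 or more was reached by 37 gene-body intervals (6.86%, 5.02 to 9.32), by 3.43% (2.31 to 5.05) of those without a gene, by 5.52% (3.52 to 8.56) of promoter intervals without a CpG island and by 16.1% (12.9 to 19.9) of those with both marks. Intervals are not replicates, so these differences were not tested.

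**Figure D2:**
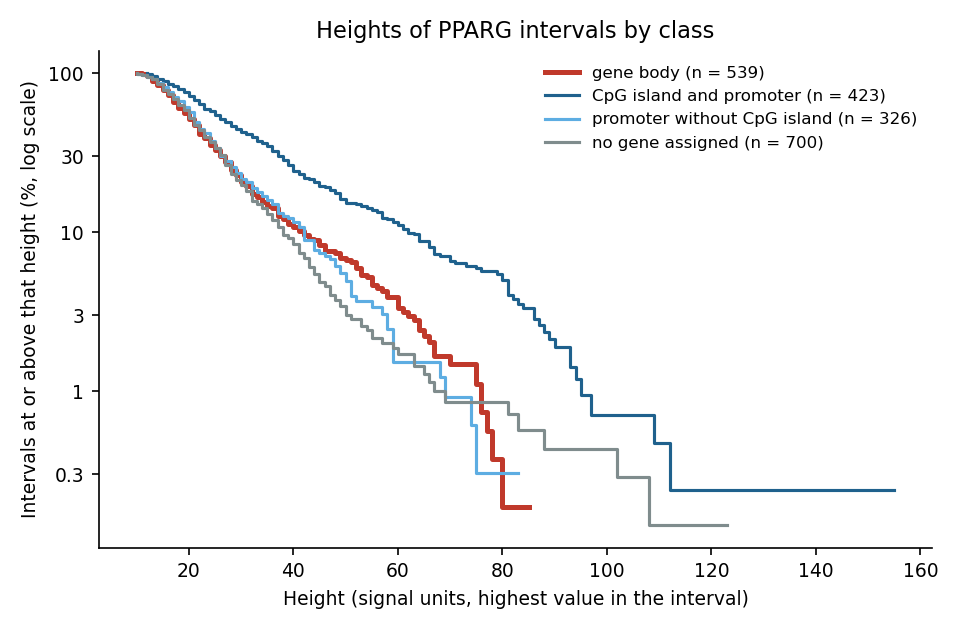
For 4 classes of PPARG intervals, the curves give the percentage of intervals at or above each height (signal units, log scale on the y axis). The gene-body curve follows those of promoter intervals without a CpG island and of intervals without a gene up to a height of about 40 and ends at 85, while intervals with a CpG island and a promoter reach 155.

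Gene-body intervals were a smaller share of the higher intervals, up to a height of 49. They were 28.9% of the 294 intervals with heights from 10 to 14, 26.8% of those from 15 to 19, 22.3% from 20 to 29, 62 of the 310 from 30 to 39, 16.3% from 40 to 49 and 22.0% of the 168 intervals at 50 or more. Of the 100 highest intervals, all at 60 or more, 21 were in the class (21.0%, 14.2 to 30.0). The lowest height of the class, 10, belonged to an interval 4846 bp into CBFB, a partner of the RUNX transcription factors, and 22 intervals had a height of 12 or lower. The median interval length was 868 bp, with quartiles of 742 and 1059 bp, against 879 bp, 744 and 1057 bp in all other PPARG intervals. Only 8 exceeded 2 kb. The mean signal was a median 0.474 of the height, against 0.465 elsewhere. Across the 539 intervals longer ones were higher (Spearman's rho 0.55), a description of intervals from 1 library whose bounds and heights come from the same track.

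Most gene-body sites lay over 10 kb from the start of the containing gene. Promoter-marked intervals are left out of the class, so short distances were in part excluded by the choice. Gene lengths were not used, so how far along a gene a site lay is not known. The summit was a median 32225 bp from the start of the containing gene, with quartiles of 12807 and 77996 bp, and 443 of the 539 (82.2%, 78.7 to 85.2) were more than 10 kb away. In the 306 in-gene intervals that carry a CpG island or a promoter mark the median was 1156 bp and 16.3% were more than 10 kb away, but the promoter mark itself depends on this distance, so the contrast follows from the choice of intervals. Only 31 gene-body summits lay within 5 kb of the start and 65 lay between 5 and 10 kb. The largest group, 151 (28.0%), lay between 20 and 50 kb, and 100 (18.6%, 15.5 to 22.1) lay over 100 kb into the gene. Median heights varied little with distance. They were 23 within 5 kb, 22 from 5 to 10 kb, 20 from 10 to 50 kb in both bins, 19 from 50 to 100 kb, 22.5 from 100 to 200 kb and 19.5 beyond, with a Spearman's rho of -0.02 over the 539 intervals.

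The sites farthest from a start were the CNTNAP2 pair, at 1302646 and 1304054 bp, in a neuronal adhesion gene known for its great length. MACROD2 followed with 12 at 1094661 bp, ST6GALNAC3, a sialyltransferase, with 19 at 620317 bp and SLC9A9, a sodium-proton exchanger of endosomes, with 15 at 599788 bp. All of these 5 sites were below the median height of 22 of all PPARG intervals. BCAS3 had 37 at 568092 bp. At the other end, the class began at 2946 bp with CCND2, the cyclin D2 gene, with a height of 14. KDM1A, a histone demethylase of corepressor complexes, had 58 at 3463 bp, LRP1, a lipoprotein receptor, had 25 at 3562 bp and NOS2, the inducible nitric oxide synthase, had 30 at 3667 bp. Just outside, with a promoter mark and no CpG island, stood SLC28A1 with 24 at 2885 bp, HMOX2 with 41 at 2881 bp, ALDH3A2 with 24 at 2821 bp, ERBB2 with 21 at 2663 bp and PLIN3 with 22 at 2524 bp. The border falls between 2885 and 2946 bp among intervals with a single gene, and heights on its 2 sides overlap.

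Most genes with a gene-body interval had a single one. Of the 466 names, 405 had 1 gene-body interval, 53 had 2, 4 had 3, 2 had 4 and 2 had 5. No interval outside the class was assigned to 404 of them (86.7%, 83.3 to 89.5), and 358 (76.8%, 72.8 to 80.4) had 1 gene-body interval and no interval of another class. An interval with a CpG island or promoter mark was assigned to 50 (10.7%, 8.23 to 13.9), and an interval closer than 1 kb to the gene start to 12 (2.58%, 1.48 to 4.45). At these 12 the gene-body interval was higher than the one at the start in 7, lower in 4 and equal in 1. TJP3 (listed as ZO3), a tight junction scaffold, had 41 at 4060 bp into the gene and 15 near its start, and FADS3 of the desaturase cluster had 29 at 5213 bp and 17. At IREB2, an iron-responsive RNA-binding protein gene, the order was reversed, with 23 at 9839 bp into the gene and 155 at the start. ATP6V1A, a proton pump subunit, had 34 and 41, and its gene-body site is also inside NAA50 (listed as LOC101115755). KRT8, a trophectoderm keratin, had 22 at 15862 bp and 14. As at EFNA1, whether the deeper KRT8 site is inside the gene was not checked.

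Sites within a gene differed in height at ABCA4, ACOT11 and ARID5B, and by less at FTO. ABCA4, a phospholipid and retinoid transporter known from the retina, had 5, with heights of 52 at 14870 bp, 20 at 16694 bp, 17 at 48086 bp, 31 at 60534 bp and 19 at 62358 bp (chromosome 1). They formed a pair near the start and a group of 3 farther in. ACOT11, an acyl-CoA thioesterase that releases free fatty acids from their CoA esters, also had 5, with 15 at 16610 bp, 24 at 37538 bp, 22 at 41826 bp, 43 at 101730 bp and 40 at 110562 bp (chromosome 1). Its highest sites were the ones deepest in the gene. ARID5B had 28 at 6520 bp, 63 at 87192 bp, 14 at 173912 bp and 12 at 180912 bp (chromosome 25), so a single site stood well above the rest. FTO, an RNA demethylase gene whose introns are linked to body weight in human, had 15 at 30715 bp and 17, 22 and 23 at 289771, 308555 and 325675 bp (chromosome 14).

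Among genes with 3 sites, EFNA5, another ephrin ligand, had 14, 45 and 20 at 24943, 78863 and 202959 bp (chromosome 5). SYTL3, a Rab effector of vesicle transport, had 20, 30 and 27 at 10884, 51300 and 57508 bp (chromosome 8). PRKCE, a protein kinase C isoform activated by diacylglycerol, had 17, 19 and 21 at 430274, 503666 and 507618 bp (chromosome 3). FADS2, the delta-6 fatty acid desaturase, had 20, 28 and 12 at 39562, 79850 and 82730 bp (chromosome 21), and was the only gene of the 8 with intervals outside the class as well, 2 in number. None of the sites of these 8 genes was at a listed input interval, and their heights within a gene spanned from 4 signal units at PRKCE to 51 at ARID5B.

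**Figure D3:**
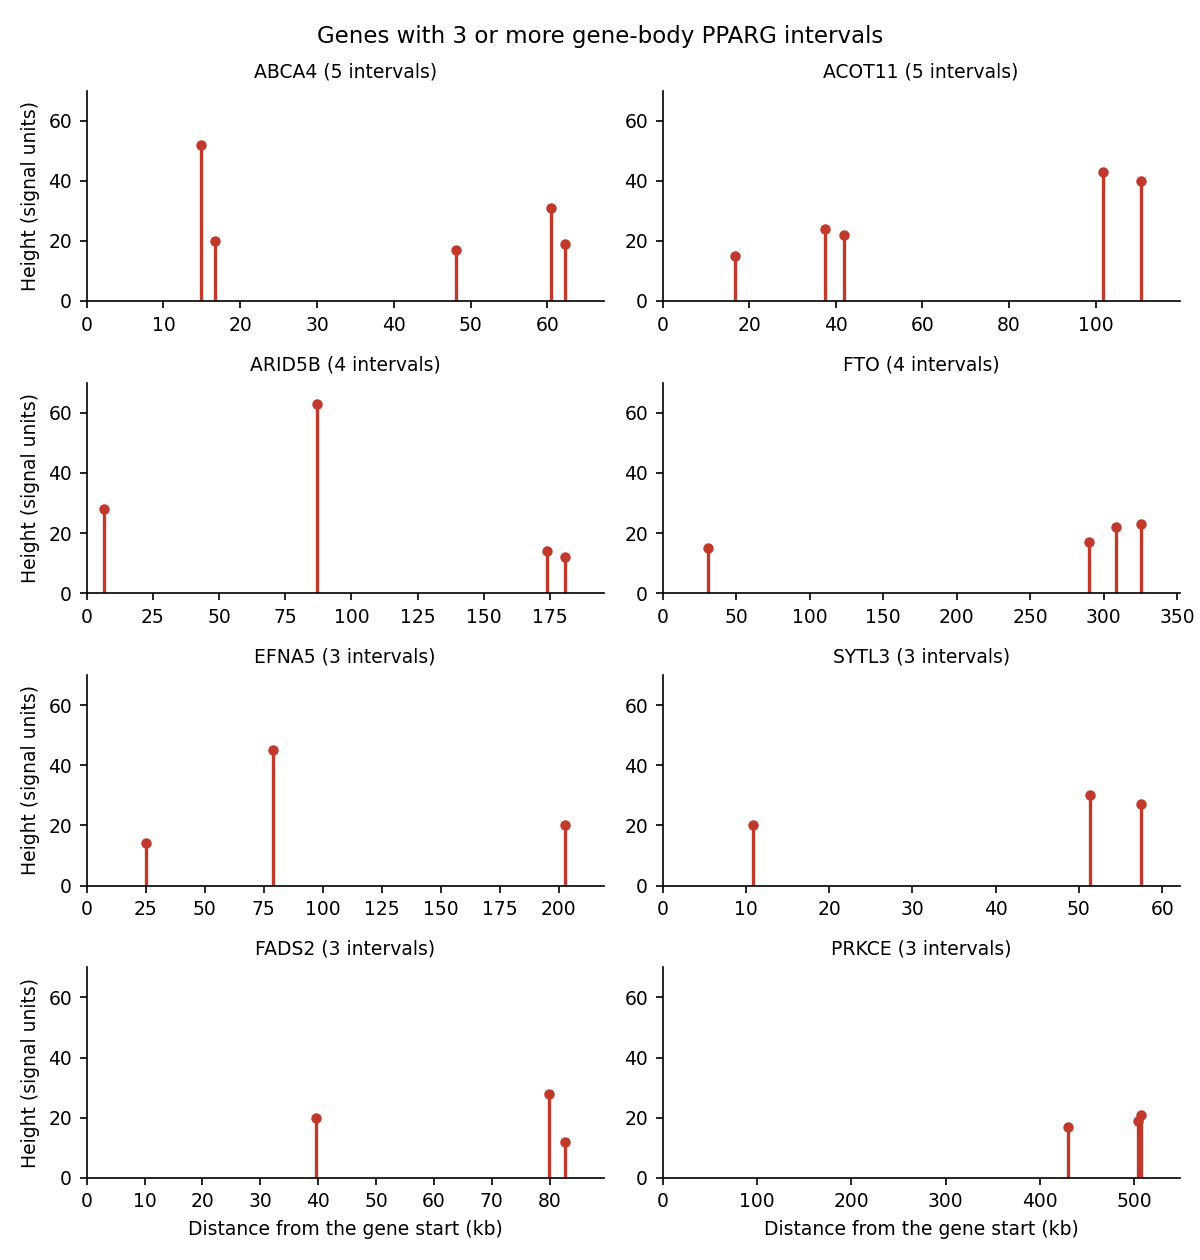
For the 8 genes with 3 or more gene-body PPARG intervals, stems mark each interval by its distance from the gene start (kb, separate scale for each gene) and its height (signal units, same scale). ARID5B shows a single tall site of 63 at 87192 bp, and ACOT11 its tallest sites of 43 and 40 beyond 100 kb.

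Some sites within a gene were close together. Of the 61 genes with 2 or more gene-body intervals, 29 had neighbouring summits 10 kb apart or less, in 31 pairs. In 7 genes 8 pairs were 2 kb apart or less. PI4KB, which makes phosphatidylinositol 4-phosphate at the Golgi, had 55 at 7802 bp and 58 at 10266 bp, in intervals from 100131095 to 100133337 and from 100129140 to 100130956 on chromosome 1. Both were broad and of nearly the same height. PLB1, a phospholipase, had 52 at 155159 bp and 40 at 158807 bp (chromosome 3), and EDEM1 had 62 and 42 at 15580 and 17708 bp (chromosome 19). At ARMC2 the neighbours were unlike, with 13 at 85459 bp and 75 at 90339 bp. BSCL2, the seipin gene needed to form lipid droplets, had 24 and 18 at 10909 and 11581 bp, only 672 bp apart (chromosome 21). These sites were assigned to UBXN1 and GNG3 as well, and the start of GNG3 lies between the start of BSCL2 and the sites. DGKZ, a kinase that converts diacylglycerol to phosphatidic acid, had 20 and 21 at 6881 and 7825 bp, 944 bp apart. The first of these intervals ends at 74565700 and the next starts at 74565706 on chromosome 15. Whether such close neighbours are separate sites or 1 region split in the calling was not tested.

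The members were next read by gene group. Of 16388 named protein-coding genes, 448 (2.73%) contained a gene-body interval, and this share is the background for each list below. Longer genes can hold more sites, and shares were not adjusted for gene length, so a list above the background is a count and not a property of the list. The lists were also chosen with earlier results of these data known, so a share above the background cannot be read as enrichment. Over all 15 lists, 47 of 689 distinct members (6.82%) had one.

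Among genes of fatty acid uptake, activation and storage, 7 of 57 had a gene-body interval (12.3%, 6.08 to 23.2). Besides LPCAT4 and ACOT11 these were GPAM, the mitochondrial enzyme that starts triglyceride synthesis, with 40 at 20689 bp and 18 at 13201 bp (chromosome 22), ACSL6, an acyl-CoA synthetase, with 32 at 34735 bp, and MGLL, which releases fatty acid from monoacylglycerol, with 22 at 13387 bp. ACOT7 had 21 at 24793 bp, and MOGAT1, which acylates monoacylglycerol, had 20 at 9000 bp. The highest site of each member had a median height of 32, against 22 over all 448 genes. The 7 members held 12 sites, and a gene with more sites has more chances of a high one. The contrast was not adjusted for this. In fatty acid oxidation, 3 of 36 had one (8.33%, 2.87 to 21.8). CPT1A, the controlling step of the carnitine shuttle into mitochondria, had 46 at 32923 bp (chromosome 21, 45455128 to 45456570), CPT2 of the same shuttle had 32 at 4676 bp (chromosome 1, 27467348 to 27468304) and HADH of beta-oxidation had 21 at 20089 bp. In fatty acid and sterol synthesis, 3 of 39 had one (7.69%, 2.65 to 20.3). They were FADS2, FADS3 and ELOVL6, an elongase, with 19 at 16133 bp. All 3 act on fatty acid chains and none is a sterol enzyme, but 3 members are too few to show a pattern.

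Nuclear receptors and coregulators had 3 of 54 members (5.56%, 1.91 to 15.1). PPARGC1B, a coactivator of mitochondrial genes, had 42 at 17006 bp (chromosome 5, 58678599 to 58679509), and RXRG, a retinoid X receptor, had 21 and 11 at 32728 and 35944 bp (chromosome 1). Trophectoderm and trophoblast genes had 4 of 35 (11.4%, 4.54 to 26.0). WWTR1, the Hippo pathway coactivator TAZ, had 52 at 76282 bp and 15 at 96986 bp (chromosome 1), and its DNA-binding partner TEAD1 had 11 at 37160 bp. The others were KRT8 and HSD3B1 of steroid synthesis, with 21 at 3709 bp. AMOTL1, a junctional protein that binds the Hippo coactivators and is no member of the list, had 55 at 88878 bp and 30 at 5486 bp (chromosome 15). It was named after its values were seen. The prostaglandin pathway had 0 of 28 (0 to 12.1%).

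Signalling genes had shares close to the 5.56% of nuclear receptors and coregulators. The Wilson intervals of all these lists included the 2.73% of all named genes. Wnt, FGF, BMP and TGF-beta signalling had 4 of 73 (5.48%, 2.15 to 13.3). FGFR2, a fibroblast growth factor receptor, had 20 at 12724 bp and 28 at 46324 bp, WNT4, a secreted Wnt ligand, had 26 at 138765 bp, TCF7L2, a nuclear effector of Wnt signals, had 16 and the coreceptor TGFBR3 had 13. The distance at WNT4 is likewise long for the gene, and whether its site is inside WNT4 was not checked. Receptor tyrosine kinases with MAPK and PI3K signalling had 3 of 60 (5.0%, 1.72 to 13.7). Among them were ERBB2, with 19 at 4711 bp and 21 at 16871 bp, and ROR1 with 17.

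Actin and small GTPase regulators had 9 of 76 members (11.8%, 6.36 to 21.0), the highest number of the 15 lists. It is also the list with the most members. ARHGAP22, which switches off Rac, had 38 at 150695 bp (chromosome 25, 42415919 to 42417778), TNS1, which links integrins to actin, had 35 at 93859 bp, and ARHGAP29 had 22 at 40688 bp. VAV3, WASL, DOCK5, ARHGAP10 and ACTN1 had between 13 and 19. The median of the highest sites was 19, below the 22 of all genes, and 4 of the 76 members had a site at or above the median height of all intervals, against 1.39% of all named genes. In adhesion, junctions and matrix, 4 of 65 had one (6.15%, 2.42 to 14.8). They were TJP3, the polarity protein PARD6B with 37 at 10771 bp, the laminin chain LAMA3 with 32 at 180365 bp and the junction scaffold MAGI1 with 15. The list of lineage transcription factors had 3 of 42 (7.14%, 2.46 to 19), among them ZFHX3 with 26. It also holds LIN28A, an RNA-binding protein and no transcription factor, with 28.

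Lists for tissues outside the conceptus had between 0 and 2 members with a site. The Wilson interval of each of these lists included the 2.73% of all named genes. The same held for all other lists but fatty acid uptake, fatty acid oxidation, trophectoderm and actin regulation. The tissue lists are thus not set apart by this. The neuronal synapse list had 2 of 43 (4.65%, 1.28 to 15.5), at SYT1 with 23 at 150463 bp and CNTNAP2. Skeletal and heart muscle had 1 of 37 (2.70%, 0.48 to 13.8), MYOZ1 with 21. The blood and immune list had 1 of 26 (3.85%, 0.68 to 18.9), EMCN, whose site is the input one. Endometrial epithelium and stroma had 0 of 24 (0 to 13.8%). Without the EMCN site the blood and immune list would have none. This holds for the 26 listed members only. Immune genes outside the list, such as NLRP12 with 50 and IL17F with 16, also held sites.

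**Figure D4:**
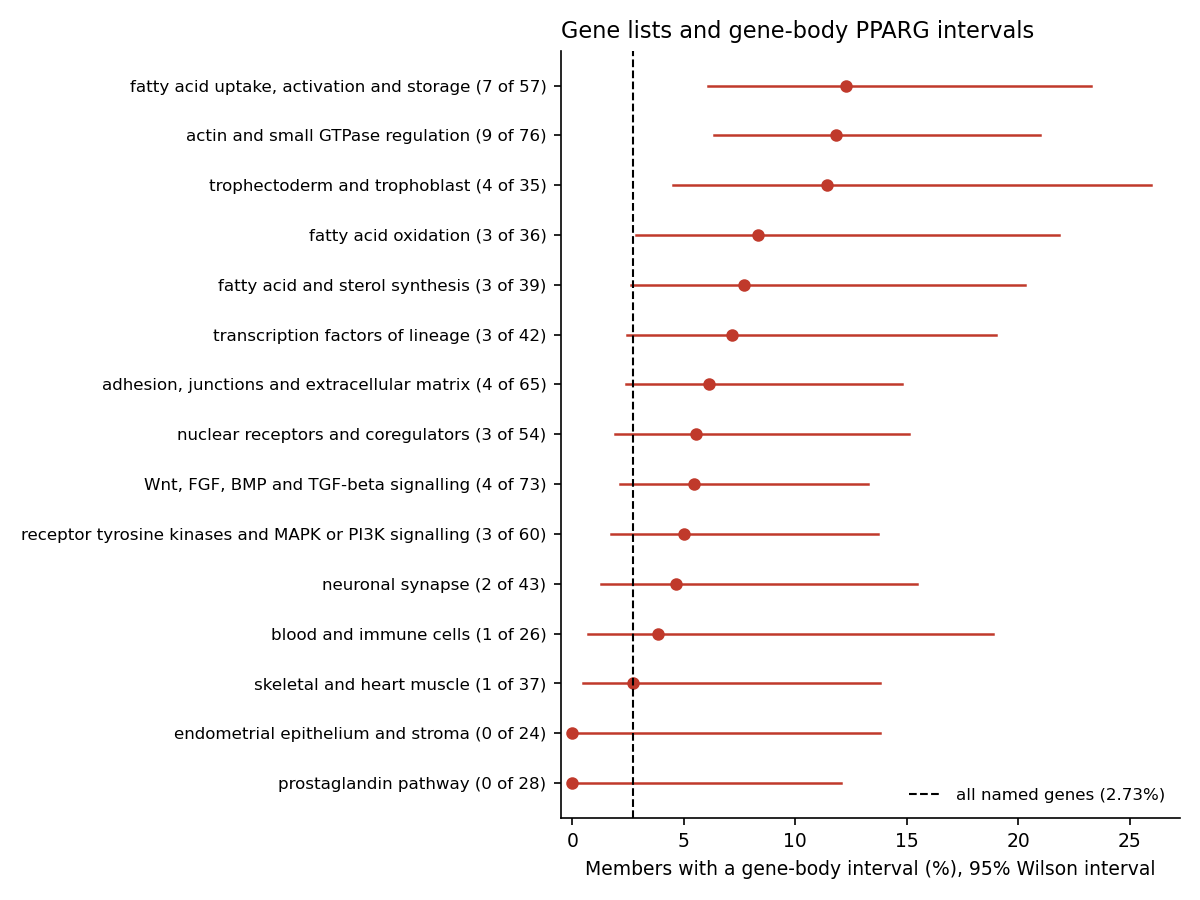
Points give the percentage of each list's named members that contain a gene-body PPARG interval, with 95% Wilson intervals for counting error, and the dashed line marks the 2.73% of all named genes. Fatty acid uptake, activation and storage stands at 12.3%, and the prostaglandin and endometrial lists at 0. The lists were chosen with earlier results of these data known.

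Further genes with sites act in lipid metabolism or lipid signalling outside the lists. They were picked and grouped after their values were seen, so no share is given and they describe single genes. In phospholipid synthesis, besides PEMT, LPCAT4 and GPAM, stood PLPP3 (listed as PPAP2B), a lipid phosphate phosphatase, with 30, PTDSS1, which makes phosphatidylserine, with 28, GPAT3 (listed as AGPAT9) with 19, CDS1, which makes CDP-diacylglycerol, with 16, PCYT1A, the rate-limiting enzyme of phosphatidylcholine synthesis, with 14, and SGMS1, a sphingomyelin synthase, with 11. Their heights thus covered nearly the whole range of the class. In phosphoinositide signalling, besides PLCB3, PI4KB, DGKZ and PRKCE, stood ITPKB, an inositol trisphosphate kinase, with 49 at 55208 bp, INPP5D, a phosphatase of PI3K products, with 45 at 103135 bp, IMPA2 with 32, PRKCA with 28, the calcium channel ITPR2 with 25, PRKCH with 24 and MTMR2 with 22. Among lipid hydrolases and lysosomal genes were PLB1, PAFAH2 with 37, PLBD1 with 23, MGLL, PSAP with 21, and both LIPA, the lysosomal acid lipase, and NPC1, which exports cholesterol from lysosomes (listed as LOC101120623), with 20. HACD2 (listed as PTPLB), a dehydratase of very long chain fatty acid elongation, had 49 at 9578 bp, and HSD17B12, the reductase of the same cycle, had 20 at 63222 bp.

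Families defined by gene symbol were counted after the values were seen, so a high count can follow from the choice of family. All 3 IQGAP scaffold genes, which tie Rac and Cdc42 to the cytoskeleton, held a site, IQGAP3 with 34 at 11364 bp, IQGAP2 with 32 at 227645 bp and IQGAP1 with 17 at 42061 bp. So did 3 of 9 protein kinase C genes, 2 of 5 A-type ephrins, 5 of 32 ARHGAP genes and 4 of 25 unconventional myosins, led by MYO18A with 53 at 3865 bp. Among the larger families, 13 of 359 solute carriers (3.62%, 2.13 to 6.10), 6 of 253 ZNF zinc finger genes (2.37%, 1.09 to 5.08), 3 of 58 Rab GTPases (5.17%, 1.77 to 14.1) and 3 of 40 ABC transporters (7.5%, 2.58 to 19.9) held a site, beside 2.73% of all named genes. The highest solute carriers were SLC19A1, the reduced folate carrier, with 48 at 6810 bp, SLC11A1, a metal transporter of phagosomes, with 41 at 4179 bp and SLC43A2, an amino acid transporter, with 36 at 16595 bp and 21 at 5363 bp.

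The class was unevenly represented on the chromosomes. It made up 45.8% (33.7 to 58.3) of the 59 intervals on chromosome 15, 41.0% (27.1 to 56.6) of 39 on chromosome 25 and 39.2% (27 to 52.9) of 51 on chromosome 22, against 23.6% of all. The lowest shares were 7.69% (2.14 to 24.1) of 26 on the X chromosome and 13.1% (7.47 to 21.9) of 84 on chromosome 20. The 27 sites of chromosome 15 fell in 23 genes and the 20 of chromosome 22 in 17, so they did not come from a few genes. Chromosome 1 had the most sites, 71 in 58 genes, with a median height of 24. Shares were not set against the number or length of genes, and 27 chromosomes were compared without a test.

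**Figure D5:**
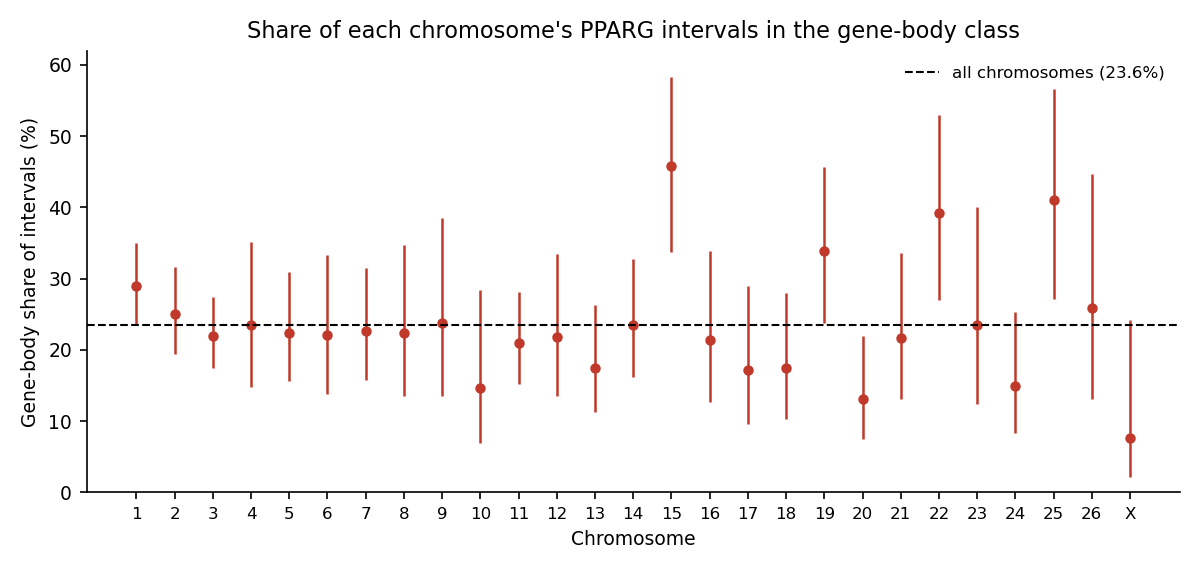
For each chromosome, points give the percentage of its PPARG intervals that are in the gene-body class, with 95% Wilson intervals for counting error, and the dashed line marks 23.6% for all chromosomes. Chromosomes 15, 22 and 25 lie above the line and the X chromosome and chromosome 20 below it.

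Few of the sites had a second gene assigned. A single gene was assigned to 502 of the 539 intervals and several genes to 37. Of these, 9 were also upstream of another gene, at distances from 8297 to 9768 bp, 27 were also downstream of another gene (1 interval was both), and 2 lay inside 2 genes, ATP6V1A with NAA50 and ADA with PKIG. For 184 sites the gene start could be placed from several intervals of the same gene, and in 3 of them, at BSCL2 and CDK3, a start of another gene with an interval lay in between. Genes without an interval are not seen by that count. Upstream assignments in the class reached 9768 bp at most, so a single assigned gene does not mean that no other gene was in reach.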

How the data were processed

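The authors deposited 1 table of intervals for a PPARG ChIP library and an input library, each from 4 pooled conceptuses per the labels. The submitters' processing notes name BWA and build Oar_v3.1. No peak caller, threshold or gene annotation is named in these sources. The signal values (highest and mean of a density track in each interval) are as deposited by the authors, with unknown scaling and depth. Heights are the authors' own and serve to describe and rank intervals.

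Intervals were selected in Python 3.11.15 with pandas 2.3.3, and shares carry Wilson intervals (scipy 1.17.1). The selection was tested on simulated data. Distances run from the summit: for 226 of 238 names with several assignments on a chromosome they gave a single start. Of the 466 names, 408 matched a symbol of the RefSeq gene table of ARS-UI_Ramb_v3.0, 16 matched by gene ID, 24 older symbols were mapped by hand and 18 stayed unmatched. That assembly served for names only. Hand mapping covered names in the gene-body class alone.

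Members and lists were chosen with earlier results of these data known, and no test was made. Named were the genes of the 20 highest intervals, genes with 3 or more intervals, list members, the 5 farthest sites and those at the border. Alternatives were the median height, single-gene intervals, no input intervals and over 5 kb from a start. The planned motif search was not run, since no Oar_v3.1 sequence was used. Some genes that this rule picks are not reported here.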

Additional observations from a re-analysis of the deposited data

How the results depend on the processing

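Of 26 recomputed values of the main counts, medians and shares, 20 stayed within 1.5 times the count or within the 95% interval of the median or share. With only intervals at or above the median height, 255 intervals were left with a median height of 29, 17 genes had 2 or more of them, and 28 list members had one. These values move because fewer, higher intervals are kept. The share over 10 kb from the start rose to 85.3% with a single assigned gene and, by construction, to 87.2% over 5 kb from every assigned start. Of 45 counts for single lists, 38 stayed within 1.5 times. No paired analysis was possible because each group has 1 library. Precision is limited by the unknown depth, the lack of replicates and the missing input values.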
